A study of Mus musculus with 8 samples.

Results

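The Schwann cell myelin genes examined here are 8 genes, *Mbp*, *Pmp22*, *Pmp2*, *Mag*, *Mal*, *Egr2*, *Prx* and *Cnp*, chosen by name as components or regulators of peripheral myelin and found by their symbols among the 36536 genes of the count files. Counts came from sorted cochlear cells of *Lfng-GFP* mice, a BAC transgenic line (B6;FVB-Tg(Lfng-EGFP)HM340Gsat/Mmucd) in which GFP, driven by *Lfng* regulatory sequence, marks border, inner phalangeal, outer pillar and Deiters' cells but not inner pillar cells. GFP+ and GFP- cells were sorted at postnatal day 1 (P1) and postnatal day 6 (P6) from freshly dissected, untreated cochleas, with 2 libraries in each of the 4 groups (P1 GFP+, P1 GFP-, P6 GFP+ and P6 GFP-). Only the brightest cells were taken as GFP+ and dimmer cells were not collected. All 4 groups carried the transgene, each library pooled sorted cells, and GFP- cells were a mixture of the unlabelled cochlear cells rather than isolated Schwann cells. At P1 the duct was peeled from the modiolus, which holds the auditory nerve and its Schwann cells, whereas at P6 it was cut free and the lateral wall was removed only in part, so age and dissection cannot be told apart. Nothing in the labels ties replicates to separate litters, so p-values measure only the spread between these libraries, which may be technical.

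Schwann cells wrap the peripheral axons of spiral ganglion neurons in a multilayered membrane, and in rodents this wrapping proceeds during the first postnatal weeks. The transcription factor EGR2 acts with SOX10 to switch immature Schwann cells to myelin synthesis. MBP holds the cytoplasmic faces of compact myelin together, PMP22 is a membrane protein of compact peripheral myelin, and PMP2 is a fatty acid binding protein of the same sheath. MAG sits on the membrane facing the axon, periaxin (PRX) on the outer Schwann cell membrane, CNP in the cytoplasm-filled parts of the sheath, and MAL in lipid rafts of myelin and of apical epithelial membranes.

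In the NCBIM37 (mm9) build used for counting, the genes lie at chr18:82644538-82755029 (*Mbp*), chr11:62942484-62973049 (*Pmp22*), chr3:10179851-10183885 (*Pmp2*), chr7:31684202-31699851 (*Mag*), chr2:127458962-127482431 (*Mal*), chr10:66998223-67004936 (*Egr2*), chr7:28284343-28305233 (*Prx*) and chr11:100436218-100453043 (*Cnp*). Exons of *Prx* and of *Cnp* each overlap 1 other annotated gene on the opposite strand, *Gm15541* and *Dnajc7*, and the library kit does not mark strand, so reads from those partners cannot be separated. *Mbp* counts include its longer golli transcripts, which cells other than myelinating glia can express.

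Each library held from 17769024 to 67695039 counts on genes. Levels are given as CPM, the counts of a gene per 1000000 gene counts of its library after scaling of the 8 libraries with the trimmed mean of M values (TMM). The 9 supporting cell markers summed to 6892 to 9679 CPM in GFP+ libraries and to 239.8 to 381.4 CPM in GFP- libraries. For the Schwann cell label, *Cldn19*, a claudin of Schwann cell autotypic junctions, was at 20.7 to 68.0 CPM in GFP- libraries. In GFP+ libraries *Cldn19* was at 3.91 and 1.97 CPM at P1 and at 23.3 and 62.1 CPM at P6. It therefore did not separate the fractions at P6. *Gjb1* and *Sox10*, also genes of Schwann cells, went the other way. *Gjb1* was at 0.532 to 1.30 CPM in GFP- and 1.90 to 3.15 CPM in GFP+ libraries, and *Sox10* at 87.8 to 136 and 272 to 363.1 CPM. Oligodendrocytes, the myelinating cells of the central nervous system, share *Mbp*, *Mag*, *Mal* and *Cnp*. Of the 10 oligodendrocyte markers, *Olig1*, *Olig2*, *Nkx2-2*, *Mobp* and *Ermn* stayed at or below 0.346 CPM in every library, 7 were at 0 in at least 1 library, and *Mog* reached at most 0.860 CPM. The whole list summed to 1.32 to 16.9 CPM, mostly from *Gm98*, at 0.661 to 15.2 CPM.

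Promoter windows of 300 bases, from 250 bases before to 50 bases after a transcription start, came from RefSeq (build GRCm38.p6). They were searched for 6 of the 8 genes: *Pmp22*, *Mag*, *Mal*, *Egr2*, *Prx* and *Cnp*. No window of *Mbp* or *Pmp2* was searched. Of these, the windows of *Prx* and *Cnp* held the EGR core, GCGTGGG on either strand, which was present in 5.04% of all 32851 windows in the table. The SOX core, ACAAAG or ACAATG on either strand, occurred in the *Cnp* window and in both overlapping *Mag* windows, where it is the same match, against 28.6% of all windows. CCAAT was present in 37.4% of all windows and occurred in windows of *Pmp22*, *Mag*, *Egr2* and *Prx*. TATAAA, present in 13.6% of all windows, occurred in no window of the 6 genes, and no searched motif occurred in the *Mal* window. These shares are per window. *Pmp22* had 4 windows, *Mag* 3, *Egr2* 5 and the other genes 1 each, some overlapping, so matches per gene are not comparable with them. The windows with an EGR or SOX core are printed because these cores are the letters that EGR2 and SOX10, the regulators named above, are known to recognise, and a *Pmp22* window is printed because *Pmp22* was the highest member per length in GFP- cells. They run 5′ to 3′ on the gene's strand, with the matches to these motifs in capitals.
*Prx*, chr7:27499074-27499373, plus strand: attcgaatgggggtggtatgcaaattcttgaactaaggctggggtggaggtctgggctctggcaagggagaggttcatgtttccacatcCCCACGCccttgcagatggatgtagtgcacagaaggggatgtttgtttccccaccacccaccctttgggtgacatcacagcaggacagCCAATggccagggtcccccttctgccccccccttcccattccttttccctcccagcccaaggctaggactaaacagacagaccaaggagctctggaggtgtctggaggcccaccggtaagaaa
*Cnp*, chr11:100574689-100574988, plus strand: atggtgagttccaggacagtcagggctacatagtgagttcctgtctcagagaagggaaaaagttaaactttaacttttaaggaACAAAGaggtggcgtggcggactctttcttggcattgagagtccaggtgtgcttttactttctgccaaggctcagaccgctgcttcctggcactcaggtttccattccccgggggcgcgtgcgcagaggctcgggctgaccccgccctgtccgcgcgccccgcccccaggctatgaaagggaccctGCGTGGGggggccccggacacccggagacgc
*Mag*, chr7:30914814-30915113, minus strand: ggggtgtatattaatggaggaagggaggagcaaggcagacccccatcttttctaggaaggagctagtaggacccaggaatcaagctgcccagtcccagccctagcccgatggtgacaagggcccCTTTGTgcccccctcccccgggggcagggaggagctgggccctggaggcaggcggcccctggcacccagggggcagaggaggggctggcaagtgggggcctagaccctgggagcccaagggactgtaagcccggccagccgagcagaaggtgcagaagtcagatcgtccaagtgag
*Pmp22*, chr11:63131207-63131506, plus strand: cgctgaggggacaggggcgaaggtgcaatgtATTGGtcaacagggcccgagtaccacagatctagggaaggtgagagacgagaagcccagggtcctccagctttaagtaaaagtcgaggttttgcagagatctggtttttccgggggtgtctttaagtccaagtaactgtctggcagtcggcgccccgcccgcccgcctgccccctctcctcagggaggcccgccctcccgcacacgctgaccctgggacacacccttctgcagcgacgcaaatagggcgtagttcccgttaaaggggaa
In *Prx* the EGR core match began at position -161 from the start site and CCAAT at -73. In *Cnp* the EGR core match lay after the start, at position 20, and the SOX core match at -167. A match describes letters in the window and does not show that a factor binds there.

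To follow myelination outside the sorted supporting cells, GFP- cells were compared between the ages. Myelin transcripts were higher at P6. Of the 8 genes, 7 rose at an adjusted p below 0.05, against 11.3% of the 18920 genes tested rising, and *Egr2* did not pass. With stricter criteria, the study's thresholds (p and adjusted p below 0.01 and a fold change above 4), only *Pmp2* was called, against 1.43% of genes. The study also required a call by both DESeq and Cufflinks, and an expression floor for its filtered lists. Here edgeR alone was used, without that floor. The median log2 fold change of the 8 genes was 1.18, against -0.02 over all genes tested. All 8 genes were higher in both P6 libraries than in both P1 libraries, as were 34.8% of the genes tested.

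*Pmp2*, the fatty acid binding protein, had 9 and 36 counts in the P1 GFP- libraries and 173 and 299 counts in the P6 GFP- libraries. These correspond to 0.217 and 0.525 CPM at P1 and 3.07 and 4.62 CPM at P6. It was the lowest member at P1 and rose 9.71-fold (log2 3.28, SE 0.457, adjusted p = 0.00455). The rise depended on which P1 library was used, with a log2 of 4.09 without P1 GFP- replicate 2 and of 2.84 without P1 GFP- replicate 1. Without P6 GFP- replicate 1 or 2 its adjusted p was 0.0192 or 0.0314, and no member then met the stricter criteria.

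*Mag*, the adhesion molecule facing the axon, was at 3.62 and 4.04 CPM at P1 and at 13.4 and 16.5 CPM at P6. It rose 3.83-fold (log2 1.94, SE 0.198, adjusted p = 0.00148). The P6 values lay well above the P1 values, although *Mag* remained a low transcript. *Mbp* was far more abundant, at 146.4 and 154.2 CPM at P1 and 296.4 and 359.3 CPM at P6. Its rise was 2.14-fold (log2 1.10, SE 0.133, adjusted p = 0.00261).

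*Pmp22* had 158.6 and 153.2 CPM at P1 and 385 and 405 CPM at P6. It rose 2.48-fold (log2 1.31, SE 0.112, adjusted p = 0.000866), and the replicates at each age were close together. *Prx*, needed for stable peripheral myelin, went from 61.4 and 65.7 CPM to 141.7 and 169.9 CPM. That was a log2 change of 1.27 (SE 0.126, adjusted p = 0.00137).

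The smallest changes were those of *Mal*, *Cnp* and *Egr2*. *Mal* was at 26.2 and 30.2 CPM at P1 and at 49.0 and 50.2 CPM at P6 (log2 0.78, SE 0.120, adjusted p = 0.00622). *Cnp* was at 86.0 and 100.9 CPM at P1 and at 138.5 and 145.2 CPM at P6 (log2 0.57, SE 0.115, adjusted p = 0.0166). *Mal* and *Cnp* rose, and their groups did not overlap. *Egr2*, the regulator, had 77.9 and 84.3 CPM at P1 and 126.8 and 98.3 CPM at P6, a difference that missed the threshold (log2 0.44, SE 0.139, adjusted p = 0.0689) but passed without P1 GFP- replicate 2 (0.041) or P6 GFP- replicate 2 (0.043). With all 8 libraries in the fit, which gives all groups a common estimate of spread, the fold changes stayed alike but only *Pmp2* and *Mag* passed an adjusted p of 0.05. *Cnp* also lost its call without either P6 GFP- library (adjusted p = 0.07 and 0.0769) and with libraries scaled by their totals alone (0.0614).

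**Figure D1:**
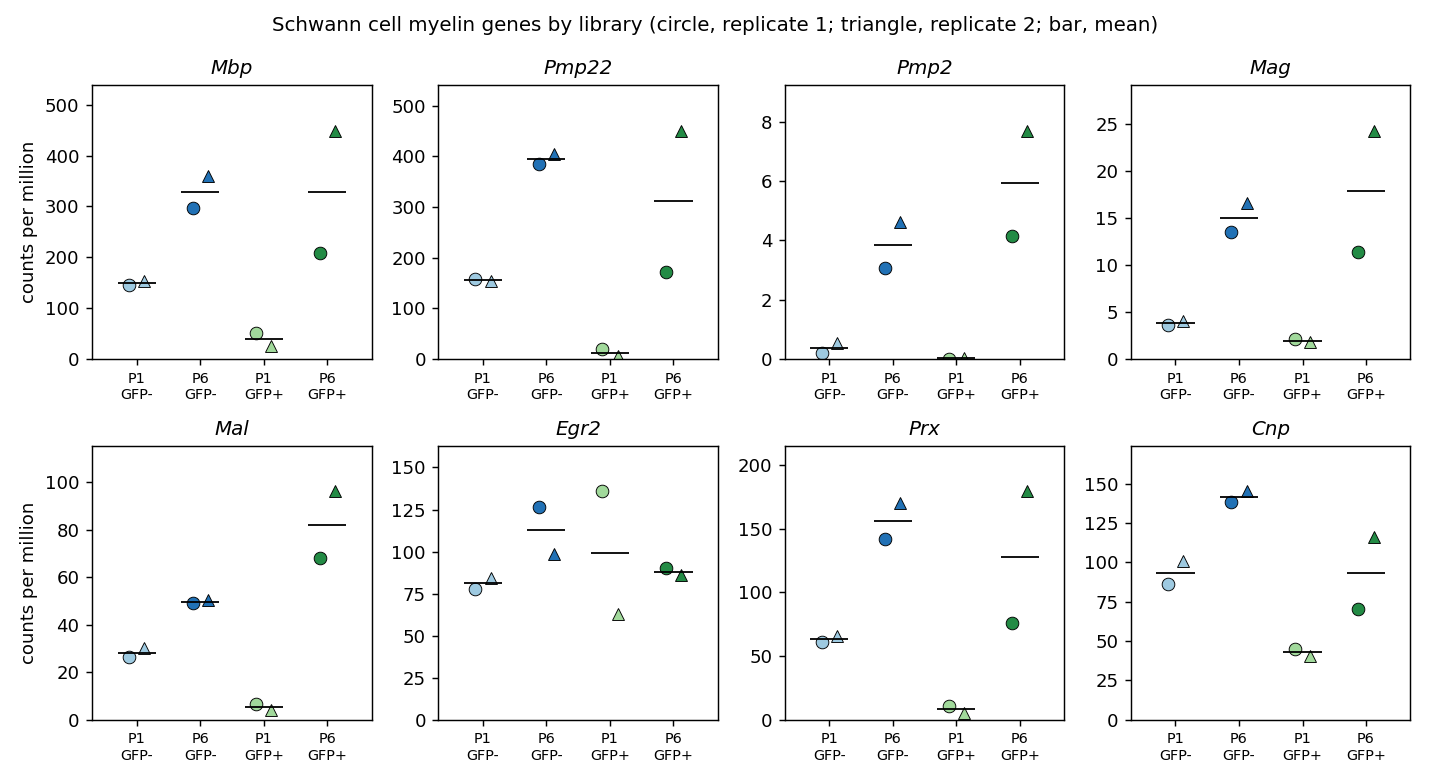
Level of each myelin gene in CPM (linear axis from 0, a scale per gene) in the 4 groups, with a circle for replicate 1, a triangle for replicate 2 and a bar for the mean. In GFP- cells (blue) both P6 libraries lie above both P1 libraries for all 8 genes, as for 34.8% of the genes tested; in GFP+ cells (green) 7 genes are low at P1 and higher in both P6 libraries, as are 34.3% of the genes tested, with P6 replicate 2 above P6 replicate 1, and *Egr2* overlaps.

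Per kilobase of exon, *Pmp22* was the highest member in GFP- cells at both ages, at 66.2 CPM per kb at P1 and 167.8 CPM per kb at P6. *Cnp* and *Egr2* followed at P1, at 25.7 and 23.9 CPM per kb, and their libraries overlapped. At P6 *Mbp* and *Cnp* overlapped behind *Pmp22*, at 39.0 CPM per kb each, followed by *Egr2* (33.1) and *Prx* (27.9), which overlapped with each other. *Mal* came next at 17.9 CPM per kb, and *Mag* and *Pmp2* were lowest at both ages. On this scale *Mag* rose from 1.58 to 6.17 and *Pmp2* from 0.272 to 2.82 CPM per kb, and both remained below every other member.

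Other genes of the myelin sheath were examined in the same way. Of 15 further structural genes, 8 rose in GFP- cells at an adjusted p below 0.05, against 11.3% of the genes tested, and 7 did not pass. Their median log2 fold change was 0.65, with log2 values above 0 for 12 of the 15. *Cldn19* had 20.7 and 24.6 CPM at P1 and 52.7 and 68.0 CPM at P6. It rose by a log2 of 1.38 (adjusted p = 0.00233) and *Gldn*, the gliomedin of nodes of Ranvier, by 1.34 (adjusted p = 0.0317). *Drp2*, a partner of periaxin, did not pass (log2 0.45, adjusted p = 0.113).

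Of 14 genes of myelin lipid synthesis, 4 rose, against 11.3% of the genes tested, and 10 did not pass, with a median log2 of 0.29. *Fa2h*, which makes the hydroxylated fatty acids of myelin galactolipids, was at 2.92 and 3.88 CPM at P1 and 9.73 and 11.9 CPM at P6 (log2 1.63, adjusted p = 0.00482). *Ugt8a*, the galactosyltransferase of the same pathway, rose by a log2 of 1.13 (adjusted p = 0.00779), *Elovl1* by 0.56 (adjusted p = 0.0441) and *Sgms2*, a sphingomyelin synthase also used outside glia, by 3.71 (adjusted p = 0.000204). The cholesterol synthesis genes *Fdft1*, *Sqle* and *Cyp51* had log2 differences between -0.09 and 0.04, with adjusted p-values of 0.766, 0.884 and 0.859.

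Of 15 regulators of myelination, 0 rose in GFP- cells by edgeR or DESeq2 at an adjusted p below 0.05, 2 were higher at an unadjusted p below 0.05 in edgeR, and 2 fell by edgeR, against 5 by DESeq2. Over all genes tested by edgeR, 11.3% rose and 7.87% fell at an adjusted p below 0.05. Those that fell by edgeR were the neuregulin receptor *Erbb3* (log2 -0.60, adjusted p = 0.0316) and *Zeb2* (log2 -0.54, adjusted p = 0.0377). *Sox10* did not pass (log2 -0.23, adjusted p = 0.446). Among 11 genes of immature Schwann cells, *Gap43* (log2 -2.09, adjusted p = 0.0096), *L1cam* (log2 -1.44, adjusted p = 0.0229) and *Fabp7* (log2 -0.57, adjusted p = 0.0229) fell, whereas *Jun* (log2 1.24, adjusted p = 0.00273) and *Id2* (log2 2.40, adjusted p = 0.000131) rose. *Gap43* and *L1cam* are also neuronal genes. *Jun* and *Id2* are expressed in many cell types.

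Genes of the glial lineage that do not depend on myelination gave a mixed picture. Of 10 such genes, *S100b* (log2 2.81, adjusted p = 0.000501) and *Cmtm5* (log2 0.99, adjusted p = 0.00275) rose, *Erbb3* and *Foxd3* (log2 -0.72, adjusted p = 0.0316) fell, and the median log2 was -0.25. Over all genes tested, 11.3% rose and 7.87% fell. This list shares 5 genes with the lists above, among them *Sox10*, *Erbb3*, *Sox2* and *Ngfr*. In a bulk sample, fewer cells of a type and less RNA per cell cannot be told apart, so neither can more Schwann cells and more myelin RNA per Schwann cell.

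**Figure D2:**
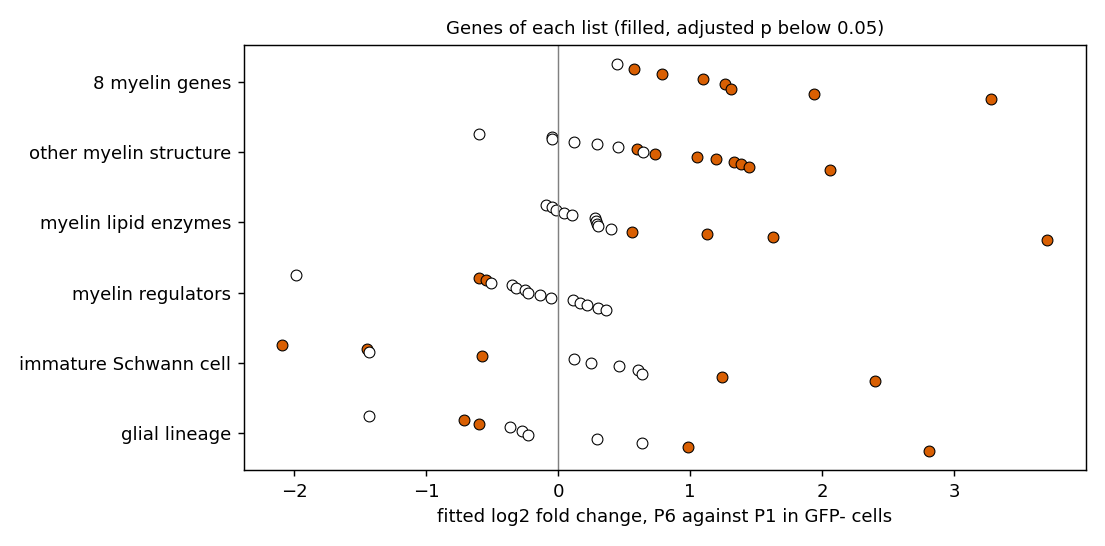
Fitted log2 fold change of P6 against P1 in GFP- cells for the tested genes of 6 lists, 1 point a gene, filled where the adjusted p was below 0.05. The 8 myelin genes all lie to the right of 0 and 7 are filled, 8 of 15 other structural genes are filled on the right, and the 2 filled regulators lie on the left. Of all genes tested, 11.3% rose and 7.87% fell at that threshold.

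Other cell types in the GFP- mixture also changed with age. Marker counts are at an adjusted p below 0.05, where 11.3% of the genes tested rose and 7.87% fell. The 12 neuron markers differed between the P1 GFP- replicates, summing to 346.4 and 889.4 CPM, and summed to 342.6 and 265.5 CPM at P6. The 8 myelin genes summed to 560.3 and 593 CPM in the same P1 libraries and to 1154 and 1249 CPM at P6. Of 9 macrophage markers 6 rose, and they summed to 245.6 and 192.6 CPM at P1 and to 593.4 and 515.2 CPM at P6. Of 8 endothelial markers 4 rose, with sums of 126.9 and 125.4 CPM and of 195.1 and 173.2 CPM. Of 10 bone and cartilage markers 8 rose, 6 of them by the stricter criteria, against 1.43% of genes, and 1 fell, with a median log2 of 3.69. They summed to 17110 and 17030 CPM at P1 and to 49300 and 43210 CPM at P6. Of 8 melanocyte markers 5 rose and 3 fell, with sums of 499 and 362.5 CPM and of 694.4 and 832.4 CPM. Of 9 fibrocyte markers 4 rose and 1 fell, with sums of 17610 and 15240 CPM and of 27260 and 24010 CPM. Without P1 GFP- replicate 2, the library rich in neuron markers, all 8 myelin genes passed an adjusted p of 0.05. The part of these changes in the myelin results was not tested.

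Next, the level in GFP+ cells was compared with GFP- cells at P1. Myelin transcripts were low in the sorted supporting cells. *Pmp2* was too low for the test, and of the 7 genes tested 6 were lower in GFP+ cells at an adjusted p below 0.05, against 28.1% of the 18682 genes tested being lower. By the stricter criteria *Pmp22*, *Prx* and *Mal* were lower, against 11.4% of genes. *Egr2* did not pass.

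*Pmp22* was at 19.4 and 6.27 CPM in P1 GFP+ libraries, 11.7-fold below P1 GFP- cells (log2 -3.55, SE 0.479, adjusted p = 0.00154). *Prx* was at 11.2 and 5.69 CPM (log2 -2.87, SE 0.297, adjusted p = 0.000524). *Mal* was at 6.65 and 4.14 CPM (log2 -2.35, SE 0.242, adjusted p = 0.000514). For all of these, both GFP+ libraries lay below both GFP- libraries, as for 40.2% of the genes tested. *Mbp* was at 51.0 and 26.0 CPM (log2 -1.94, SE 0.301, adjusted p = 0.00273) and differed between its GFP+ replicates. Replicate 2 was at 0.509 times replicate 1 for *Mbp* and *Prx* and at 0.323 times for *Pmp22*. Without P1 GFP+ replicate 1 the *Pmp22* fold was 24.6, and without replicate 2 it was 7.88. Without replicate 1 the *Prx* fold was 11.1, against 7.30 with both, and *Mbp*, at 5.72-fold, met the stricter criteria. *Pmp2* had 0 and 1 counts in the P1 GFP+ libraries against 45 counts over the P1 GFP- libraries, a ratio of GFP- to GFP+ of 29.5 with an exact 95% interval from 5.04 to 1192 that covers counting error only.

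*Cnp* and *Mag* differed less. *Cnp* had 45 and 40.7 CPM in P1 GFP+ cells and was 2.15-fold lower than in GFP- cells (log2 -1.11, SE 0.112, adjusted p = 0.00048). *Mag* had 2.12 and 1.78 CPM (log2 -0.95, SE 0.238, adjusted p = 0.0173), and it lost its call without P1 GFP+ replicate 1 (adjusted p = 0.0742) or replicate 2 (0.13). *Egr2* was at 135.8 and 63.0 CPM in P1 GFP+ cells, values that lie on either side of the 77.9 and 84.3 CPM of GFP- cells (log2 0.32, SE 0.333, adjusted p = 0.461). Without P1 GFP+ replicate 1 the *Egr2* difference turned to -0.35 (adjusted p = 0.119), and without replicate 2 it was 0.77 and passed (adjusted p = 0.00923). The related immediate early gene *Egr1* was also higher in P1 GFP+ replicate 1 than in replicate 2, at 1805 and 1195 CPM, and its part in the *Egr2* spread was not tested. Per kilobase, *Egr2* was the highest member in P1 GFP+ cells, at 29.3 CPM per kb, followed by *Cnp* at 11.8.

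In P6 GFP+ cells the myelin transcripts apart from *Egr2* were higher than in P1 GFP+ cells. From P1 to P6, 7 of the 8 genes rose in GFP+ cells at an adjusted p below 0.05, against 12.1% of the 17213 genes tested, and *Egr2* did not pass. By the stricter criteria *Mal* and *Pmp2* were called, against 1.63% of genes. *Pmp2*, with 0 and 1 counts in the P1 GFP+ libraries, passed the count filter only through its P6 libraries. A rise was therefore the only outcome it could show, and its place in both counts is no support. The median log2 fold change was 3.54 against a median of -0.002 over all genes tested.

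*Mal* went from 6.65 and 4.14 CPM at P1 to 67.9 and 96.1 CPM at P6, a 15.0-fold rise (log2 3.90, SE 0.312, adjusted p = 0.00337). *Pmp22* reached 171.6 and 450.5 CPM (log2 4.58, SE 0.742, adjusted p = 0.0169). *Prx* reached 75.6 and 179.2 CPM (log2 3.90, SE 0.547, adjusted p = 0.0118). The P6 replicates of *Pmp22* and *Prx* were far apart, and each still lay above both P1 libraries. Without P1 GFP+ replicate 1 the rise was 49.6-fold for *Pmp22* and 22.4-fold for *Prx*, and without P6 GFP+ replicate 2 it was 12.7-fold and 8.61-fold. *Mbp* reached 208.5 and 449 CPM (log2 3.09, SE 0.502, adjusted p = 0.017) and *Mag* 11.4 and 24.2 CPM (log2 3.18, SE 0.432, adjusted p = 0.011). Without P6 GFP+ replicate 2 these log2 values were 2.41 and 2.52.

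*Pmp2* had 69 and 225 counts in the P6 GFP+ libraries, or 4.15 and 7.70 CPM (adjusted p = 0.00544). Against the single count over both P1 GFP+ libraries, the ratio was 463, with an exact 95% interval from 82.4 to 18333 that covers counting error only. *Cnp* was at 70.2 and 116.1 CPM (log2 1.12, SE 0.256, adjusted p = 0.0392). *Egr2* was at 90.1 and 86.2 CPM, within the range of its P1 libraries (log2 -0.18, SE 0.355, adjusted p = 0.737), and this difference turned to 0.49 without P1 GFP+ replicate 1. *Cnp* lost its call with libraries scaled by their totals alone and without P1 GFP+ replicate 2 (adjusted p = 0.176). Here 6 genes met the stricter criteria under several other settings, given in the closing section.

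The P6 GFP+ libraries did not resemble each other in these genes. Replicate 2 exceeded replicate 1 by 1.41-fold (*Mal*) to 2.63-fold (*Pmp22*) in 7 members, and the *Egr2* ratio was 0.957. Over 773 other genes at least 16-fold higher in GFP- than in GFP+ cells at P1, replicate 2 exceeded replicate 1 by a median log2 of 0.97. Between the P1 GFP+ replicates the value was -0.01. The genes were selected for low levels in those P1 libraries, and 0.5 CPM was added before taking logs. Both draw the P1 value toward no difference, so it is not a fair comparator. Without replicate 2, 7 genes still rose from P1 to P6 at an adjusted p below 0.05, with log2 values of 3.60 for *Mal* and 0.70 for *Cnp*. In such fits the remaining library is assumed to vary like the other group.

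**Figure D3:**
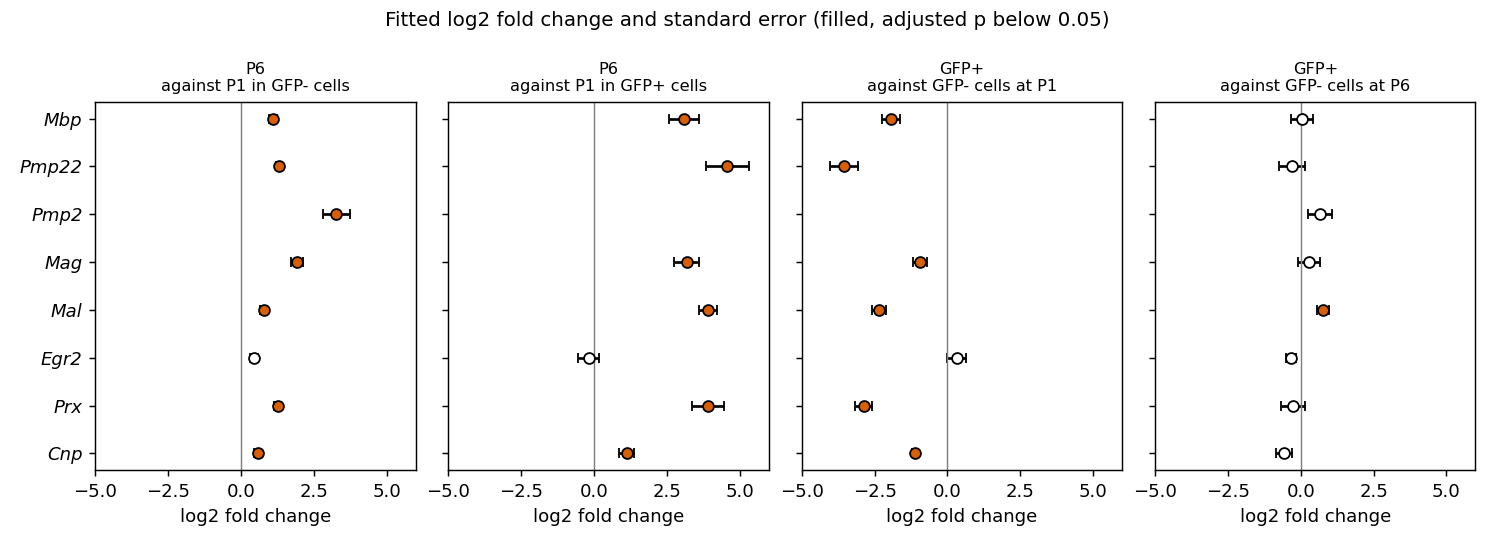
Fitted log2 fold change with its standard error (horizontal bar) for each myelin gene in the 4 comparisons, filled where the adjusted p was below 0.05; *Pmp2* was not tested at P1 and is left out of the GFP+ age panel because its P1 libraries held 1 count in all. Points lie right of 0 in both age panels apart from *Egr2* in GFP+ cells, left of 0 at P1 apart from *Egr2*, and around 0 at P6.

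At P6, no myelin gene differed between GFP+ and GFP- cells by the stricter criteria, against 7.98% of the 18294 genes tested. At an adjusted p below 0.05 in edgeR only *Mal* passed, being higher in GFP+ cells, against 15.5% of genes being higher, and *Mal* was also the only member with an unadjusted p below 0.05. DESeq2 likewise called no member by the stricter criteria and 1 at an adjusted p below 0.05. *Mal* was at 67.9 and 96.1 CPM in GFP+ cells and at 49.0 and 50.2 CPM in GFP- cells (log2 0.76, SE 0.210, adjusted p = 0.0406). Both GFP+ libraries lay above both GFP- libraries, and *Mal* also passed without P6 GFP+ replicate 2 (log2 0.48, adjusted p = 0.0126) but not without either P6 GFP- library.

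For *Mbp*, *Pmp22*, *Pmp2*, *Mag* and *Prx*, the P6 GFP+ and GFP- libraries overlapped, whereas the groups did not overlap for 72.7% of the genes tested. The 5 log2 differences ran from -0.31 (*Pmp22*) to 0.66 (*Pmp2*). *Cnp* (log2 -0.57) and *Egr2* (log2 -0.32) were lower in both GFP+ libraries, and neither passed. The result turned on which P6 GFP+ library was used. With replicate 1 alone, *Pmp22* (log2 -1.18, adjusted p = 5.59e-05), *Prx* (-1.02, 0.000171), *Cnp* (-0.99, 0.000101) and *Mbp* (-0.63, 0.0105) were lower in GFP+ cells. With replicate 2 alone, *Mal* (1.04, adjusted p = 2.35e-05), *Pmp2* (1.09, 0.00623), *Mag* (0.78, 0.00223) and *Mbp* (0.54, 0.0283) were higher. The *Mbp* difference thus passed the threshold in opposite directions with the 2 libraries.

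Expressed as a percentage of the mean GFP- level of the same age, the GFP+ level of the 8 genes had a median of 22.4% at P1 and 91.0% at P6, or 69.7% in the first P6 library and 126% in the other. The P1 values ran from 5.21% (*Pmp2*) and 8.23% (*Pmp22*) to 50.8% (*Mag*) and 122.6% (*Egr2*). At P6 they ran from 65.7% (*Cnp*) to 165.3% (*Mal*). An interaction test over the 8 libraries asked whether the GFP+ to GFP- ratio changed with age. It passed at an adjusted p below 0.05 for *Mal*, *Prx*, *Pmp22* and *Pmp2*, all toward a higher ratio at P6, against 3.6% of the 19233 genes tested, and did not pass for *Mbp* (adjusted p = 0.0778), *Mag* (0.19), *Cnp* (0.39) and *Egr2* (0.45). Of the 4, only *Mal* kept its call whichever library was left out. *Prx* kept it without either P6 GFP+ library and lost it without any of the 6 others (adjusted p from 0.0577 to 0.166). *Pmp22* lost it in 5 of the 8 fits (0.0799 to 0.182) and *Pmp2* in 5 (0.0951 to 0.235). The age and fraction comparisons share libraries and are not independent of each other.

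Markers of other GFP- cell types moved in the GFP+ libraries as well. Endothelial markers summed to 25.4% of the GFP- level at P1 and to 105% at P6, with 89.1 CPM in P6 GFP+ replicate 1 and 298.6 CPM in replicate 2. Fibrocyte markers (9 genes) summed to 2.36% and 10.3%, melanocyte markers (8 genes) to 3.24% and 12.1%, macrophage markers to 9.25% and 14.4%, and blood markers (6 genes) to 3.71% and 12.6%. Bone and cartilage markers (10 genes) differed by measure, their sum going from 36.5% to 18.1% and their median gene from 3.93% (7 genes) to 17.1% (10 genes), medians being taken over genes with a mean of at least 1 CPM in GFP- cells of that age. The myelin genes summed to 36.3% of the GFP- level at P1 and to 87.7% at P6. *Egr2* weighs most in the P1 GFP+ sums, at 135.8 and 63.0 CPM of 271.1 and 147.6 CPM. By their sums, all of these lists except neuron markers were higher in P6 GFP+ replicate 2 than in replicate 1, by 1.58-fold (bone and cartilage) to 3.45-fold (blood), and the myelin genes by 2.01-fold. Neuron markers had a median gene at 10.1% at P1 (12 genes) and at 47.7% at P6 (11 genes), or 35.7% in P6 replicate 1 and 62.1% in replicate 2. Their sum was 62.5% at P1, where the GFP- replicates differed, and 145% at P6, and in it *Isl1*, at 245.5 to 294.3 CPM in GFP+ libraries, weighs most. *Isl1* was picked out after its values were seen. The part of these cell types in the GFP+ myelin signal was not tested.

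**Figure D4:**
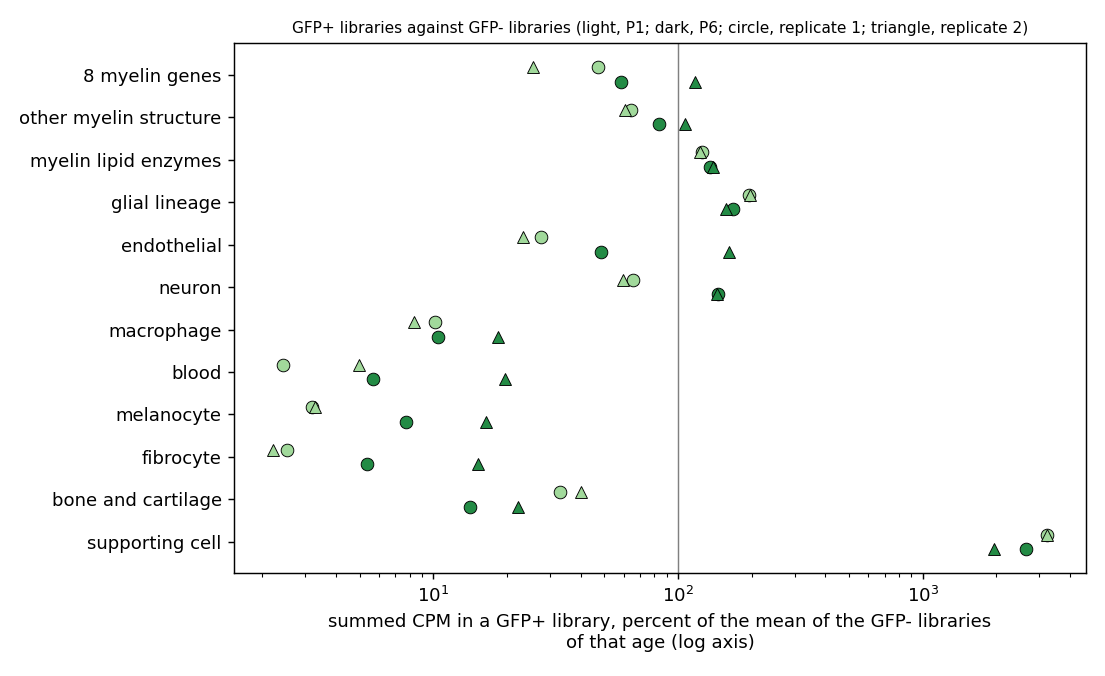
Summed CPM of each gene list in each GFP+ library as a percentage of the mean of the GFP- libraries of the same age (log axis), with P1 in light green, P6 in dark green, circles for replicate 1 and triangles for replicate 2. The myelin genes and endothelial markers move from below 50% at P1 to both sides of 100% at P6, while fibrocyte, melanocyte, macrophage and blood markers stay at or below 20%. *Egr2* weighs most in the P1 GFP+ sums of the myelin genes.

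Other sheath genes also rose in GFP+ cells. Of the 15 structural genes, 11 rose from P1 to P6, against 12.1% of the genes tested, and 4 did not pass, with a median log2 of 1.18. *Cldn19* went from 3.91 and 1.97 CPM to 23.3 and 62.1 CPM (log2 3.83, adjusted p = 0.0154). *Drp2* (log2 3.30, adjusted p = 0.00479) and *Pllp*, a raft proteolipid related to MAL (log2 2.92, adjusted p = 0.00479), met the stricter criteria. *Nab2*, a cofactor of EGR proteins, was the only regulator to do so, at 1.75 and 1.28 CPM at P1 and 15.4 and 17.2 CPM at P6 (log2 3.41, adjusted p = 0.00321). Its P6 GFP+ replicates were close together, unlike those of *Cldn19*, *Pmp22* or *Prx*.

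The members shared a common profile apart from *Egr2*. Over the 8 libraries, the Pearson correlation of log2(CPM + 0.5) with the mean profile of the other members was 0.994 for *Mbp*, 0.981 for *Prx*, 0.964 for *Pmp22*, 0.963 for *Mal*, 0.939 for *Mag*, 0.897 for *Cnp*, 0.879 for *Pmp2* and 0.22 for *Egr2*. These are descriptions over libraries that share their grouping and depth, with no test. The share of all genes that reach such correlations is not given, so they do not show that the members are more alike than other genes. Among 15255 other genes with a mean of at least 1 CPM, those most like the members' mean profile included *Mboat2* (r = 0.9974), *Gja4* (0.9951), *Ptgds* (0.9947), *Igfbp7* (0.9938), *Osbpl2* (0.9912), *Srgap2* (0.9893), *Esam* (0.9843), *Cldn19* (0.9825) and *Foxo3* (0.9817). *Gja4* and *Esam* are known from endothelial cells, and *Cldn19* from Schwann cells.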

How the data were processed

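RNA was measured by paired-end sequencing in 8 libraries of *Lfng-GFP* cochlear cells. The deposited files hold unnormalized counts for each Ensembl gene, made by the authors by alignment to mm9 and counting with HTSeq; the submitters' processing notes name TopHat 1.4.0, HTSeq and DESeq 1.9.2. The counting mode is not given in the sources used here. Entries listed as without a feature (13.8% to 25.6% of a library), ambiguous (2.05% to 2.53%) or not uniquely aligned (7.41% to 9.60%) were left out. The NCBIM37 annotation gave symbols, exon lengths and positions for 34391 of the 36536 genes. The list genes *Ncmap* (no match) and *Pou3f1* (2 identifiers) were left out.

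Sample titles gave the age and fraction. Each comparison was fitted on its own 4 libraries with edgeR 4.0.16 (R 4.3.3) by the quasi-likelihood test with TMM scaling, after edgeR's filterByExpr (minimum count 10, minimum total 15), with Benjamini-Hochberg adjustment over all genes tested. A gene was called when p and adjusted p were below 0.01 and the fold change above 4; adjusted p below 0.05 with no fold criterion was a second rule. The interaction was fitted on all 8 libraries, at an adjusted p below 0.05. The test was checked on simulated counts. Alternatives were DESeq2 1.42.0, other scalings, no filter, all 8 libraries, replicate terms, thinning to the smallest library, a test against the fold criterion itself (glmTreat) and leaving out each library. Exact intervals used scipy 1.17.1, and figures matplotlib 3.10.9.

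The members, lists, motifs and tests were chosen with earlier results of these data known. Genes named are the members, any gene of the 5 glial and myelin lists and the oligodendrocyte list, at most 2 abundant markers of other cell types, and the 10 genes most like the members. Some genes of these lists are counted but not reported here by name. Promoter windows came from RefSeq (GRCm38.p6), and their coordinates are not those of the counted build.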

Additional observations from a re-analysis of the deposited data

Results flagged for a closer look

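The GFP+ to GFP- ratio of 4 myelin genes differed between the ages by the interaction test of edgeR over all 8 libraries. On the log2 scale the ratio at P6 exceeded that at P1 by 3.09 for *Mal* (adjusted p = 0.00282), 3.24 for *Pmp22* (adjusted p = 0.0452), 2.61 for *Prx* (adjusted p = 0.038) and 5.17 for *Pmp2* (adjusted p = 0.046). The *Pmp2* value is fitted against P1 GFP+ libraries with 1 count in all and depends on the prior count. Without P6 GFP+ replicate 2, the library with more GFP- gene signal, the values were 2.80 for *Mal* (adjusted p = 0.000736), 2.36 for *Pmp22* (0.0284), 1.83 for *Prx* (0.015) and 4.65 for *Pmp2* (0.0335). Only *Mal* kept its call whichever library was left out. *Prx* lost it without any 1 of the P1 or the P6 GFP- libraries (adjusted p from 0.0577 to 0.166). *Pmp22* lost it in 5 of the 8 fits (0.0799 to 0.182) and *Pmp2* in 5 (0.0951 to 0.235).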

How the results depend on the processing

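By the stricter criteria, the number of myelin genes called in GFP- cells between the ages was 1, and it became 2 after thinning to the smallest library, 0 in a test against a fold change of 4 (glmTreat), 7 at an adjusted p below 0.05 with no fold criterion, and 0 to 1 when a library was left out. In GFP+ cells between the ages it was 2, and it became 6 with DESeq2, with no filter, with all 8 libraries in the fit and with a replicate block, 0 with glmTreat, 7 at an adjusted p below 0.05, and 2 to 6 when a library was left out (6 without P1 GFP+ replicate 1, P6 GFP+ replicate 1 or P6 GFP+ replicate 2). Between the fractions it was 3 at P1 (0 with glmTreat, 6 at an adjusted p below 0.05, 3 to 4 without a library) and 0 at P6 (1 at an adjusted p below 0.05, 0 without any single library). The interaction count was 4, with 2 under the replicate block and 1 to 7 without a library (1 without P1 GFP+ replicate 2, P1 GFP- replicate 2 or either P6 GFP- library, 2 without P1 GFP+ or P1 GFP- replicate 1, 7 without P6 GFP+ replicate 1). The cause was not tested, except that glmTreat and the looser rule change the criterion itself. The median GFP+ percentage ran from 16.0 to 28.8 at P1 and from 69.7 to 126 at P6 when a library was left out, and from 21.0 to 22.5 and from 93.1 to 93.8 under other scalings. *Egr2* reversed without P1 GFP+ replicate 1 in GFP+ cells between the ages (range without a library -0.64 to 0.49), at P1 (-0.35 to 0.77) and in the interaction (-1.07 to 0.0065). At P6, *Mbp* reversed with no filter (-0.008), with the replicate block (-0.064), without P6 GFP+ replicate 2 and without P6 GFP- replicate 1 (-0.07; range without a library -0.63 to 0.54), *Mag* without P6 GFP+ replicate 2 (-0.38 to 0.78), and *Pmp22* (-1.18 to 0.28) and *Prx* (-1.02 to 0.29) without P6 GFP+ replicate 1. The labels do not say whether same-numbered libraries belong together, and the main fits used no pairing. Deviations of same-numbered libraries correlated at -0.325 and -0.123 in the age comparisons and 0.026 and 0.06 in the fraction comparisons. With 2 libraries a group, these values cannot decide whether GFP+ and GFP- libraries came from the same sort. A crossed block, chosen after seeing the data, gave 1 and 6 called members between the ages in GFP- and GFP+ cells. Counts over all genes moved more than 1.5 times in several fits: in GFP- cells between the ages 271 higher and 79 lower genes became 53 and 0 with glmTreat, 123 and 8 without P6 GFP- replicate 1, and 162 and 10 without replicate 2, and lower genes became 357 without P1 GFP- replicate 1, 147 without P1 GFP- replicate 2, 187 with DESeq2, 288 with no filter and 228 with the crossed block; in GFP+ cells 281 higher and 160 lower became 778 and 261 with DESeq2, 1019 and 368 with no filter, 752 and 260 with all 8 libraries, 14 and 6 with glmTreat, 80 and 55 without P1 GFP+ replicate 2, 1306 and 335 without P6 GFP+ replicate 1, and 633 and 611 without P6 GFP+ replicate 2, and higher genes became 426 with the block and 460 with the crossed block; at P1 1206 and 2125 became 485 and 1015 with glmTreat; at P6 892 and 567 became 190 and 1 with glmTreat, 359 and 7 without P6 GFP- replicate 1, and 0 and 0 without replicate 2, and lower genes became 1211, 1473, 1294 and 955 with DESeq2, no filter, all 8 libraries and the block, and 2156 without P6 GFP+ replicate 2. Interaction counts of 692 and 536 became 1470 and 842 with DESeq2, 2128 and 1073 with no filter, 401 and 349 with the block, 169 and 179 without P1 GFP+ replicate 1, 168 and 169 without P1 GFP+ replicate 2, 408 and 340 without P1 GFP- replicate 2, 1848 and 832 without P6 GFP+ replicate 1, 1265 and 1726 without P6 GFP+ replicate 2, 175 and 196 without P6 GFP- replicate 1, and 157 and 209 without P6 GFP- replicate 2, and lower genes became 311 without P1 GFP- replicate 1. Scaling by totals alone shifted the median log2 of all genes by -0.191 in GFP- cells between the ages, by -0.105 at P1 and by 0.124 in the interaction, and turned the split of higher and lower genes from 892 and 567 to 837 and 295 at P6, from 271 and 79 to 192 and 100 in GFP- cells, and from 692 and 536 to 840 and 413 in the interaction. Low counts limit *Pmp2* at P1, and 2 libraries a group limit all comparisons.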

Other observations

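Of 15 regulators of Schwann cell myelination, 4 were higher and 7 lower in GFP+ than in GFP- cells at P1 at an adjusted p below 0.05, against 25.5% of genes tested being higher and 28.1% lower. At P6, 5 were higher and 4 lower, against 15.5% and 17.9% of genes. The genes named here were chosen after their values were seen. Among the lower ones, *Zeb2* was at 13.4 and 11.6 CPM in P1 GFP+ cells and at 298.7 and 239.9 CPM in P1 GFP- cells (log2 -4.41, adjusted p = 1.56e-05), and *Nab2* at 1.75 and 1.28 against 23.5 and 28.5 CPM (log2 -4.06, adjusted p = 4.46e-05). *Sox10* was at 272 and 274.9 CPM in P1 GFP+ cells and at 87.8 and 136 CPM in P1 GFP- cells (log2 1.31, adjusted p = 0.00253), and at 363.1 and 312.3 against 95.9 and 99.4 CPM at P6 (log2 1.82, adjusted p = 0.00222). *Gpr126*, an adhesion receptor needed for peripheral myelination, was at 1293 and 1180 CPM against 59.0 and 72.1 CPM at P1 (log2 4.25, adjusted p = 1.45e-05), and it fell in GFP+ cells from P1 to P6 (log2 -1.34, adjusted p = 0.0102). *Ugt8a* was higher in GFP+ than in GFP- cells at P1 (log2 2.88, adjusted p = 5.49e-05) and at P6 (log2 1.28, adjusted p = 0.00789).

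Of the 15 other structural genes of myelin, 3 were higher and 4 lower in GFP+ than in GFP- cells at P6. Over all genes tested, 15.5% were higher and 17.9% lower, so these counts lie near the general share. *Cd9* and *Cd82*, tetraspanins of myelin that many epithelia also express, were higher, by a log2 of 2.20 (adjusted p = 0.00381) and 3.15 (adjusted p = 0.00102). The third was *Gjb1*, a low transcript at 2.58 and 3.15 CPM in GFP+ and 1.30 and 1.16 CPM in GFP- cells (log2 1.26, adjusted p = 0.0325). *Gjb1* was also higher in GFP+ cells at P1 (log2 1.53, adjusted p = 0.0168). The neurotrophin receptor *Ngfr* was at 80.3 and 64.9 CPM in P6 GFP+ cells and at 12.4 and 9.40 CPM in P6 GFP- cells (log2 2.77, adjusted p = 0.00119). The study lists *Ngfr* and *Sox2*, counted here in the glial lists, among previously described supporting cell genes.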
